A study of Mus musculus with 12 samples.

Results

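The genes described here are 10 members of the cell cycle arrest machinery linked to p53 and to cellular senescence. They are the 7 cyclin-dependent kinase (CDK) inhibitor genes Cdkn1a, Cdkn1b, Cdkn1c, Cdkn2a, Cdkn2b, Cdkn2c and Cdkn2d, together with Trp53, Mdm2 and Ccng1. They were taken by gene symbol, from a list made with earlier results of these data known. All 10 were found among the 25124 genes of each of the 2 expression tables. The study asked how the mouse retina responds to raised intraocular pressure (IOP) at different ages, and whether repeated elevations in young animals change that response. Whole retinas of wild-type C57BL/6J mice were profiled by bulk RNA-seq in 12 libraries, 2 for each of 6 groups. In the single-IOP table, 3mo IOP and 18mo IOP are retinas of 3-month-old and 18-month-old mice collected 2 days after 1 h at 30 mmHg in that eye, and 3mo control and 18mo control are retinas of the untreated eye. In the repeated-IOP table, 4xIOP retinas came from mice that were 3 months old when treatment began and had 4 such elevations in 1 eye, 2 weeks apart, with collection 2 days after the last one, and 4xIOP control is the other eye. The controls therefore belonged to animals that had gone through the procedure in the other eye, and no animal without it was analysed here. The study calls its replicates biological, while the labels do not tie a library to an animal. The p-values therefore measure the spread between these libraries.

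CDK inhibitors hold back the kinases that drive a cell through its cycle. The CIP/KIP family (Cdkn1a, Cdkn1b and Cdkn1c, encoding p21, p27 and p57) binds a broad range of cyclin-CDK complexes, while the INK4 family (Cdkn2a to Cdkn2d, encoding p16, p15, p18 and p19Ink4d) binds CDK4 and CDK6. The transcription factor p53, encoded by Trp53, switches on Cdkn1a, Mdm2 and Ccng1 after DNA damage and other stress, and Mdm2 in turn marks p53 for degradation. Cdkn1a and Cdkn2a are the inhibitors most used as markers of senescent cells.

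Values are FPKM, the fragments counted in the exons of a gene per kilobase of its transcript and relative to the total tags of a library, so levels of different genes can be set side by side. The depth recovered from the values lay between 39766233 and 59455053 tags per library, of which exons took between 66.0% and 71.5% in the single-IOP table and between 44.2% and 53.7% in the repeated-IOP table. The tables were made separately and no test was run across them. Differences were tested with limma on log2(FPKM + 0.5) over every gene whose mean reached 0.5 FPKM (13731 of the single-IOP table and 13718 of the other). A call needed a p, adjusted by the Benjamini-Hochberg method, no higher than 0.05 and a log2 fold change of 1 or more in size. This scale understates the change of a gene near the pseudocount, so ratios of mean FPKM are given too. Of the 10 members, 9 were tested in the single-IOP table, which left out Cdkn2a, and 8 in the repeated-IOP table, which left out Cdkn2a and Cdkn2b. With 2 libraries in a group an exact permutation test of a single gene cannot go below p = 0.333, so the model across all genes was used.

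The libraries carried retinal transcripts at high levels, and those levels differed between groups. The 7 rod photoreceptor markers summed to between 21133 and 23966 FPKM in 3mo control and between 15598 and 17499 in 18mo control, with 1 called lower, and to between 9448 and 9874 in 4xIOP control and between 4668 and 7017 in 4xIOP retinas, with none called. In both comparisons 6 of the 7 lay lower without overlap. Markers of other cell types moved with age and treatment. The 8 microglia and leukocyte markers summed to between 6.60 and 8.66 FPKM in 3mo control, between 14.3 and 22.5 in 3mo IOP, between 22.0 and 24.4 in 18mo control and between 26.8 and 57.6 in 18mo IOP retinas, and to between 4.18 and 4.34 in 4xIOP control and between 41.3 and 47.5 in 4xIOP retinas. Of these 8, 4 were called higher with age in untreated eyes and 7 after 4 elevations, and none after a single elevation at either age. The 6 endothelial and pericyte markers summed to between 13.1 and 15.9 FPKM in 3mo control and between 77.0 and 81.0 in 18mo control, and all 6 were called higher. The 6 Muller glia markers summed to between 460 and 592 FPKM in 3mo control and between 936 and 1204 in 18mo control, with 3 called higher, while the 8 retinal ganglion cell markers summed to between 322 and 630 FPKM in 3mo control and between 36.1 and 79.7 in 18mo control, with 6 called lower. The 8 lens markers summed to between 10.4 and 14.4 FPKM in 4xIOP control and between 71.2 and 156 in 4xIOP retinas, and all 6 tested were called higher. After 4 elevations the endothelial and pericyte sum went from between 33.1 and 37.9 to between 63.8 and 69.4 FPKM (1 of 5 tested called higher), and the Muller glia sum from between 741 and 776 to between 442 and 565, although 1 of its 6 markers was called higher and their median log2 fold change was 0.52. Of 6 tested retinal pigment epithelium markers 5 were called lower with age in either kind of eye (median log2 fold change -2.46 untreated and -3.95 treated), and of 3 tested after 4 elevations 2 were called lower. At 18 months all 5 tested lens markers lay above and all 5 blood markers below their controls with IOP (medians 1.33 and -2.37), with none called. No marker of these lists was at 0 in every library. Their part in the results below was not tested, and in bulk tissue fewer cells of a type and less RNA per cell cannot be told apart.

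Between ages, Cdkn1a was the member that differed most: its level was 7.43-fold higher in 18mo control than in 3mo control retinas and 10.8-fold higher in 18mo IOP than in 3mo IOP retinas. Ccng1, another target of p53, went the other way and was 2.19-fold lower in 18mo control retinas. In limma on FPKM, IOP changed no member past the threshold at either age or after 4 elevations. Cdkn1a and Trp53 nevertheless lay above their controls without overlap in all 3 IOP comparisons. The study, with its own test on read counts, reports a significant rise of Cdkn1a in aged retina upon IOP.

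Set against all genes, 2 of the 9 tested members were called between the untreated eyes of the 2 ages, 1 higher and 1 lower, where 23.2% of all tested genes were called. Without overlap, 3 members (Cdkn1a, Trp53 and Mdm2) lay higher and 5 (Ccng1, Cdkn1b, Cdkn1c, Cdkn2c and Cdkn2d) lower in old untreated eyes, where 45.7% and 32.8% of all genes did (11.6% were called higher and 11.6% lower). The median log2 fold change of the 9 was -0.39, beside 0.16 for all genes. In treated eyes 2 members were called, 1 in each direction, where 21.8% of all genes were called, and 3 lay higher and 4 lower without overlap, beside 43.2% and 34.5% of all genes. By IOP, none of the 9 was called at 3 months, where 0.575% of all genes were, and 2 had an unadjusted p under 0.05 in limma. At 18 months none of the 9 was called, where 0.124% of all genes were, and 2 had an unadjusted p under 0.05 in limma. The treated libraries of 6 members lay above their controls at 18 months and those of 3 members at 3 months, beside 36.5% and 28.6% of all genes, and none lay below, beside 9.89% and 3.95%. After 4 elevations none of the 8 tested members was called in limma, where 6.15% of all genes were, 2 had an unadjusted p under 0.05, and 4 lay above their controls without overlap and none below, beside 27.7% and 12.7% of all genes. A fit of voom on the recovered reads called no member in the 3 IOP comparisons either. The 2 IOP comparisons of the single-IOP table share their control libraries with the age comparison, so the values are given side by side and not as separate evidence.

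**Figure D1:**
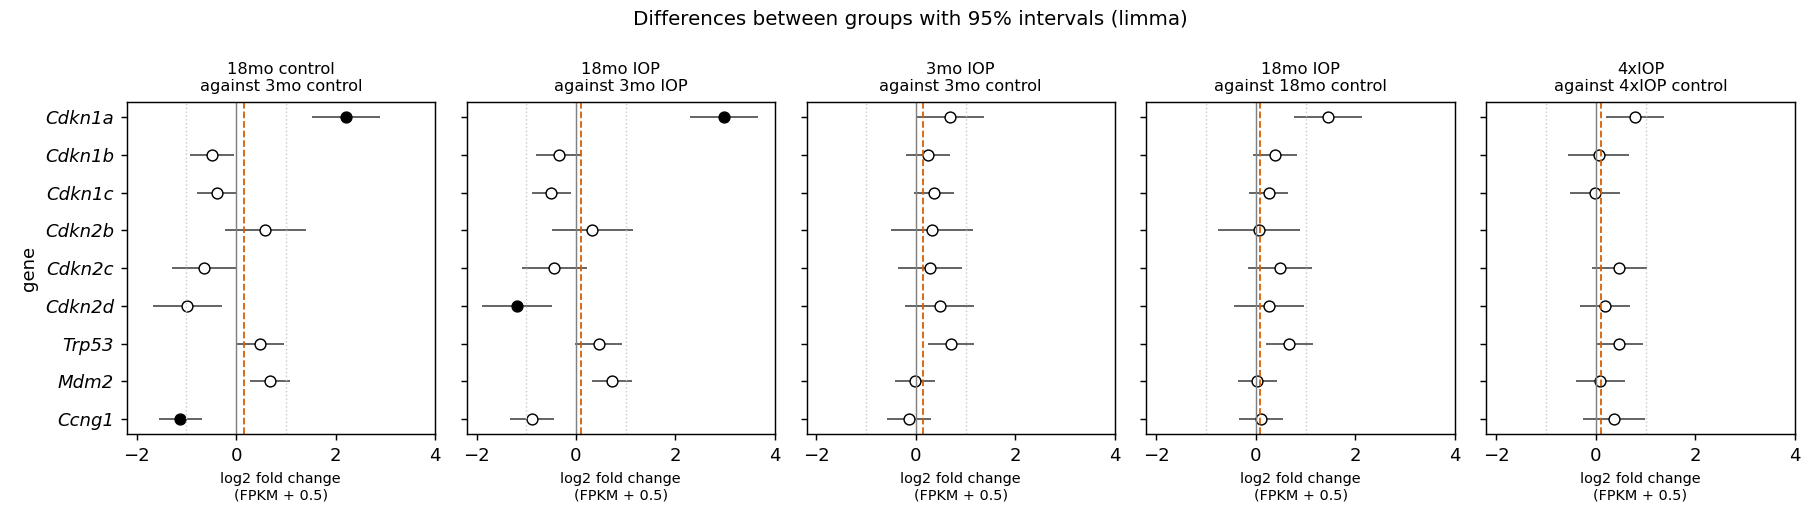
Log2 fold change of each tested member on the log2(FPKM + 0.5) scale in the comparisons of age and of IOP, with its 95% interval from limma. Filled points passed the threshold, dotted lines mark a change of 1 in size and the dashed line the median of all tested genes. The Cdkn1a intervals for age, from 1.55 to 2.87 in untreated eyes, are the highest, and Mdm2 sits near 0 in the IOP comparisons.

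Cdkn1a encodes p21, the inhibitor through which p53 halts the cycle. It lies on chromosome 17 of mm10 from 29093769 to 29100722 on the plus strand (NM_007669, 1908 bases of exons). RefSeq lists a second, upstream start for it, 2790 bases before that of the transcript used for FPKM. The 300-base windows around both starts are shown because they differ in a letter match to the p53 consensus (2 decamers side by side, at most 1 mismatch, on either strand). Such a match was found in 2 of the 12 start windows of the 9 members with a RefSeq window (GRCm38.p6, 250 bases before and 50 after the start), and in 29 of 32851 windows of all genes (0.0883%). Capitals mark the match, which begins at -51 relative to the upstream start.
Cdkn1a, upstream start, chr17:29090729-29091028, plus strand: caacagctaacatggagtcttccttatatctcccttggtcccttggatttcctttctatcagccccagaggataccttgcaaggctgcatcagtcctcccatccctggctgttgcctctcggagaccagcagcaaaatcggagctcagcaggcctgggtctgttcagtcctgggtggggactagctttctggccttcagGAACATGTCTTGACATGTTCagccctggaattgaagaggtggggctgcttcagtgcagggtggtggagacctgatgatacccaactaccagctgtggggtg
Cdkn1a, start of the transcript used, chr17:29093519-29093818, plus strand: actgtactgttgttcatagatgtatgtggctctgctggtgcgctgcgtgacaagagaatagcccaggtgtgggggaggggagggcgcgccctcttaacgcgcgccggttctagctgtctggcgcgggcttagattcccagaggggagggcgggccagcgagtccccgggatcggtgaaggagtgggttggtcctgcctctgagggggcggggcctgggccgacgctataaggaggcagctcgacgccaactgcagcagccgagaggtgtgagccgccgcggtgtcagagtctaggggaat
A match is a description of the letters and not a bound site. The single decamer was found in 5 of the 12 windows and in 8.36% of all windows, and the hexamer GGGCGG, on either strand, in 8 of the 12 and in 35.7% of all.

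Cdkn1a measured 0.707 and 0.571 FPKM in the 3mo control libraries and 5.02 and 4.48 FPKM in the 18mo control libraries. The groups were far apart, with 108 reads over both young libraries and 820 over both old ones. The log2 fold change was 2.21 (SE 0.287, limma adjusted p = 0.00484), and Cdkn1a ranked 42 from the top among the 13731 genes ordered by this difference. In the treated eyes it measured 1.56 and 1.11 FPKM at 3 months and 10.1 and 18.7 FPKM at 18 months. The 18mo IOP libraries differed from each other by more than any other pair did for this gene in FPKM, yet both lay above all other libraries. The log2 fold change of 18mo IOP over 3mo IOP was 2.97 (SE 0.287, limma adjusted p = 0.00178, rank 26), so the call was made in both kinds of eye, which share no library but may share animals.

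**Figure D2:**
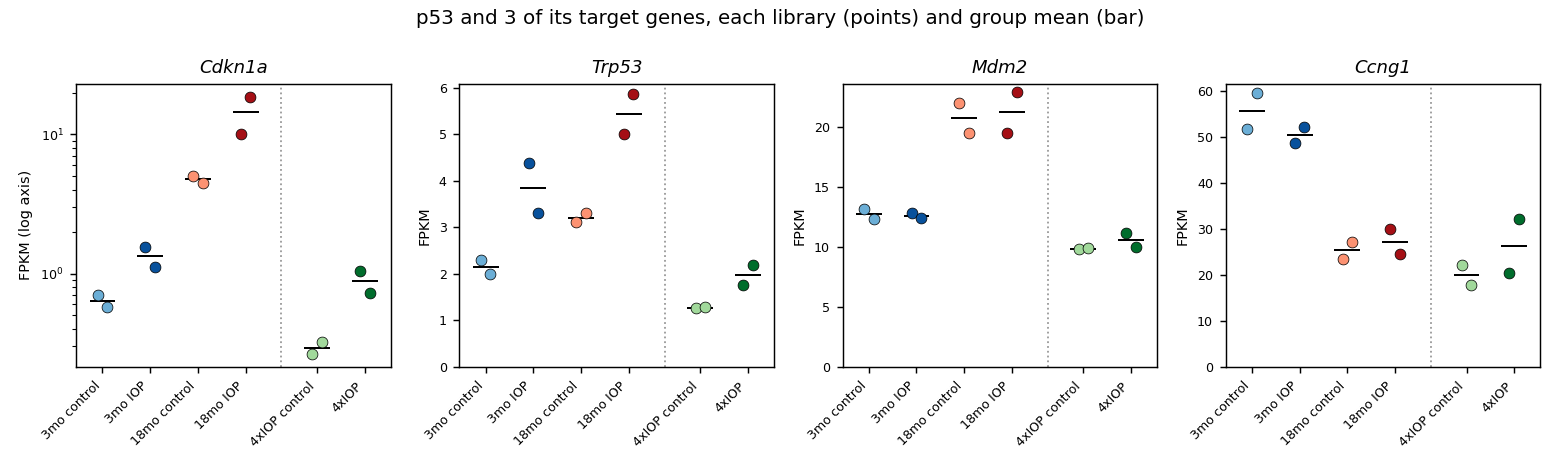
FPKM of Cdkn1a, Trp53, Mdm2 and Ccng1 in each of the 12 libraries (points) with the group mean (bar), on a log axis for Cdkn1a and linear axes for the others, and with the separately made repeated-IOP table to the right of the dotted line. Cdkn1a runs from 0.571 FPKM in its lowest 3mo control library to 18.7 FPKM in its highest 18mo IOP library, while within the single-IOP table Ccng1 is lower in all 4 libraries of 18-month-old mice than in the 4 of 3-month-old mice.

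For the response of Cdkn1a to IOP, the treated libraries lay above their controls at both ages and after 4 elevations. At 3 months the mean level was 2.09-fold that of the control (log2 fold change 0.68, 95% interval 0.02 to 1.34, limma adjusted p = 0.561). At 18 months it was 3.04-fold that of the control (log2 fold change 1.45, SE 0.287, 95% interval 0.79 to 2.11). Its p of 0.000954 in limma became 0.115 after adjustment, which misses the threshold, and the gene ranked 140 of 13731 by this difference. Without 18mo IOP replicate 1, the lower of that pair, the log2 fold change was 1.87 with an adjusted p of 0.0195 in limma, and over the other libraries left out in turn it went down to 1.02. In 4xIOP retinas Cdkn1a measured 1.04 and 0.719 FPKM against 0.264 and 0.322 FPKM in the control eyes, again without overlap. That is 2.99-fold (log2 fold change 0.79, SE 0.261, limma adjusted p = 0.104), from 169 reads against 46. The difference between the IOP responses at the 2 ages was itself tested in the same fit. It came to 0.77 on the log2 scale, with a 95% interval from -0.17 to 1.70 and an adjusted p of 0.9999 in limma. The 2 responses were therefore not shown to differ, and the interval leaves room for a response at 18 months that is larger by up to 1.70.

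Trp53, the gene of p53 itself, lies on chromosome 11 from 69580359 to 69591873 on the plus strand (NM_011640, 1759 bases). It was among the lower members, at 2.30 and 2.00 FPKM in 3mo control libraries, 4.37 and 3.30 in 3mo IOP, 3.11 and 3.30 in 18mo control, and 4.999 and 5.861 in 18mo IOP libraries. The treated libraries lay above their controls at both ages, and the older libraries above the younger ones of the same kind of eye. By IOP the log2 fold change was 0.70 at 3 months (SE 0.195, limma adjusted p = 0.23) and 0.67 at 18 months (SE 0.195, limma adjusted p = 0.229), and the 2 responses differed by -0.03 with a 95% interval from -0.66 to 0.61. In the repeated-IOP table Trp53 measured 1.26 and 1.29 FPKM in control and 1.76 and 2.19 FPKM in 4xIOP eyes, with a log2 fold change of 0.48 (SE 0.21, limma adjusted p = 0.286). By age it was 0.49 in untreated eyes (limma adjusted p = 0.0708) and 0.46 in treated eyes (adjusted p = 0.0888). None of these passed the threshold.

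Mdm2 encodes the ubiquitin ligase that limits p53 and is itself a p53 target (chromosome 10, 117688875 to 117710758, minus strand, NM_001288586, 3001 bases). Its level was 13.1 and 12.3 FPKM in 3mo control libraries, 12.8 and 12.4 in 3mo IOP, 22.0 and 19.5 in 18mo control, and 19.4 and 22.9 in 18mo IOP libraries. The 4 libraries of old mice lay above the 4 of young mice, and treated and untreated libraries of an age overlapped. The age difference was 1.63-fold in untreated eyes (log2 fold change 0.68, SE 0.164, limma adjusted p = 0.0138) and 1.68-fold in treated eyes (0.72, adjusted p = 0.0131), past the adjusted p in both but under the fold threshold. The adjusted p in limma rose to 0.0602 and 0.0571 with same-numbered libraries as a block, and to as much as 0.105 and 0.0812 with 1 library left out. The IOP difference was -0.01 at 3 months (95% interval -0.39 to 0.37) and 0.03 at 18 months (-0.35 to 0.41). After 4 elevations it was 0.09 (SE 0.215), from 9.79 and 9.90 FPKM in control to 11.2 and 9.94 FPKM in 4xIOP eyes without overlap, and its sign turned to -0.04 with median-of-ratios size factors.

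Ccng1 encodes cyclin G1, a p53 target that works with Mdm2 and a protein phosphatase. It lies on chromosome 11 from 40748552 to 40755286 on the minus strand (NM_009831, 3480 bases), and its start window is the other one with the p53 consensus match, which begins at -195 relative to the start.
Ccng1, chr11:40755237-40755536, minus strand: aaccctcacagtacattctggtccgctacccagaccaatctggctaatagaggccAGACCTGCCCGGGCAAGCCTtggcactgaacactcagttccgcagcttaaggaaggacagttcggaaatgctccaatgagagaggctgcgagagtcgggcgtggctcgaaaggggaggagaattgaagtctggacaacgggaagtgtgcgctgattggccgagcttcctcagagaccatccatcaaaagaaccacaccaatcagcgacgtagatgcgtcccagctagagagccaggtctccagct
The windows of Mdm2, Trp53 and Cdkn2d held a single decamer only, and sequence outside the windows was not searched. Ccng1 was the most abundant member in the 3-month-old mice of the single-IOP table, at 51.7 and 59.5 FPKM in 3mo control. The 3mo IOP libraries held 48.7 and 52.2 FPKM, and Ccng1 measured 23.5 and 27.2 FPKM in 18mo control and 30.0 and 24.6 in 18mo IOP libraries. Every library of the old mice was below every library of the young mice in that table. Ccng1 fell with age in untreated eyes (log2 fold change -1.12, SE 0.183, limma adjusted p = 0.00574). In treated eyes the change was -0.88 (SE 0.183, limma adjusted p = 0.0103), under the fold threshold, which it passed at -1.08 once the trend of level with transcript length was removed. IOP differences were -0.14 at 3 months, 0.10 at 18 months and 0.36 after 4 elevations (limma adjusted p of at least 0.72 in each), and each pair of groups overlapped. The 2 control groups of young mice stood apart for this gene, at 22.1 and 17.8 FPKM in 4xIOP control libraries, with the tables made separately and a lower exon share in the repeated-IOP table.

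The ratio of Mdm2 to Ccng1, chosen after the values were seen, sets side by side these p53 targets with transcripts of similar length. It was between 0.206 and 0.262 in the 4 libraries of 3-month-old mice and between 0.649 and 0.934 in the 4 of 18-month-old mice. In the repeated-IOP table it ranged from 0.442 to 0.556 in control and from 0.309 to 0.546 in 4xIOP eyes, which overlapped.

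The other CIP/KIP genes were far more abundant than Cdkn1a in young retinas. Cdkn1b encodes p27 (chromosome 6, 134920401 to 134925525, plus strand, NM_009875, 2400 bases). It measured 30.9 and 39.4 FPKM in 3mo control libraries, 44.5 and 38.7 in 3mo IOP, 26.4 and 23.4 in 18mo control, and 31.8 and 33.1 in 18mo IOP libraries. Untreated old eyes lay below untreated young eyes, with a log2 fold change of -0.48 (SE 0.185, limma adjusted p = 0.0625) that missed the threshold. Treated 18-month eyes lay above their controls by 0.38 (limma adjusted p = 0.627), and at 3 months the groups overlapped. Among the repeated-IOP libraries Cdkn1b measured 23.3 and 19.2 FPKM in control and 17.7 and 27.2 FPKM in 4xIOP libraries, so that the treated pair enclosed the control pair.

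Cdkn1c, encoding p57, lies on chromosome 7 from 143458339 to 143461050 on the minus strand (NM_009876, 1898 bases) in an imprinted cluster. It measured 8.54 and 10.4 FPKM in 3mo control libraries, 12.7 and 11.8 in 3mo IOP, 7.08 and 7.04 in 18mo control, and 8.48 and 8.62 in 18mo IOP libraries. Treated libraries lay above their controls at both ages and old ones below young ones in the same kind of eye. By age the log2 fold change was -0.39 in untreated eyes (limma adjusted p = 0.0803) and -0.49 in treated eyes (adjusted p = 0.0412, and 0.134 with the replicate block), under the fold threshold. By IOP it was 0.36 at 3 months (limma adjusted p = 0.615) and 0.26 at 18 months (adjusted p = 0.839). After 4 elevations the libraries overlapped, at 2.77 and 2.86 FPKM in control and 2.15 and 3.57 FPKM in 4xIOP eyes.

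In the INK4 family, Cdkn2a was barely detected. The locus on chromosome 4, minus strand, makes p16Ink4a and p19Arf from starts 12427 bases apart that share their later exons, and the 2 tables kept different transcripts for it: NM_001040654 of p16Ink4a in the single-IOP table (89274473 to 89282192, 845 bases) and NM_009877 of p19Arf in the repeated-IOP table (89274473 to 89294619, 924 bases). Reads in the shared exons cannot be assigned to p16Ink4a or p19Arf from these values. There were 2 and 0 reads in 3mo control libraries, 0 and 0 in 3mo IOP, 2 and 5 in 18mo control, and 0 and 4 in 18mo IOP retinas, and 0 and 0 in 4xIOP control and 0 and 3 in 4xIOP retinas. With 3 reads as the limit that a count of 0 allows, the limit was 0.0855 FPKM in the shallowest single-IOP library, and 2 of the 12 libraries exceeded 3 reads. No fold is given, and a difference was not detectable at this depth. This limit covers counting error only.

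Cdkn2b encodes p15, an inhibitor induced by transforming growth factor beta, and lies 11670 bases beyond the p19Arf start (chromosome 4, 89306289 to 89311032, minus strand, NM_007670, 1389 bases), overlapping Gm12610 on the opposite strand, whose reads are set apart where the library keeps its strand. It was low and uneven: 0.104 and 0.633 FPKM in 3mo control libraries, 0.716 and 0.380 in 3mo IOP, 0.591 and 0.923 in 18mo control, and 0.668 and 0.945 in 18mo IOP libraries, from 6 to 78 reads each. All groups overlapped with the ones they were compared with. The age difference in untreated eyes was 0.59 (SE 0.347, limma adjusted p = 0.19), and it became 1.05 with an adjusted p of 0.0191 in limma once the length trend was removed, the lowest of a range up to 0.277 over the other settings and up to 0.749 with 1 library left out. In the repeated-IOP table, where it was too low to test, Cdkn2b measured 0.181 and 0.034 FPKM in control (10 and 2 reads) and 0.179 and 0.664 FPKM in 4xIOP eyes (14 and 39 reads).

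Cdkn2c, encoding p18, was the most abundant INK4 gene (chromosome 4, 109660876 to 109665372, minus strand, NM_007671, 1102 bases). It measured 20.6 and 29.8 FPKM in 3mo control libraries, 35.5 and 25.8 in 3mo IOP, 16.5 and 15.1 in 18mo control, and 17.9 and 27.6 in 18mo IOP libraries. Old untreated libraries lay below young ones, and 18mo IOP above 18mo control, while 3mo IOP overlapped with both 3mo control and 18mo IOP. The age difference was -0.64 in untreated eyes (SE 0.274, limma adjusted p = 0.0874). It was 0.06 with the length trend removed, so its direction depends on that choice. The repeated-IOP table gave Cdkn2c at 9.61 and 9.43 FPKM in control and 10.8 and 16.7 FPKM in 4xIOP libraries (log2 fold change 0.48, SE 0.247, limma adjusted p = 0.419), without overlap.

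Cdkn2d, encoding p19Ink4d, lies on chromosome 9 from 21288464 to 21291209 on the minus strand (NM_009878, 1266 bases). It measured 10.7 and 22.0 FPKM in 3mo control libraries, 22.2 and 21.0 in 3mo IOP, 6.94 and 8.25 in 18mo control, and 9.18 and 9.13 in 18mo IOP libraries. All 4 old libraries lay below all 4 young ones of that table, and 3mo control replicate 1 was the lowest young library. Cdkn2d fell with age in treated eyes, 2.36-fold (log2 fold change -1.19, SE 0.296, limma adjusted p = 0.017), but not past the fold threshold in untreated eyes (-0.98, SE 0.296, limma adjusted p = 0.0291, and 0.0512 with the replicate block). Both results depended on the setting. With the length trend removed the treated difference was -0.61 and no longer called, and each of the 4 treated libraries, when left out, raised its adjusted p in limma to between 0.0559 and 0.0948. The untreated difference was called without 3mo control replicate 1, at -1.48, and also with median-of-ratios size factors (-1.14) or voom (-1.19). The libraries of the repeated-IOP table overlapped, at 7.69 and 7.95 FPKM in control and 7.76 and 10.3 FPKM in 4xIOP eyes.

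**Figure D3:**
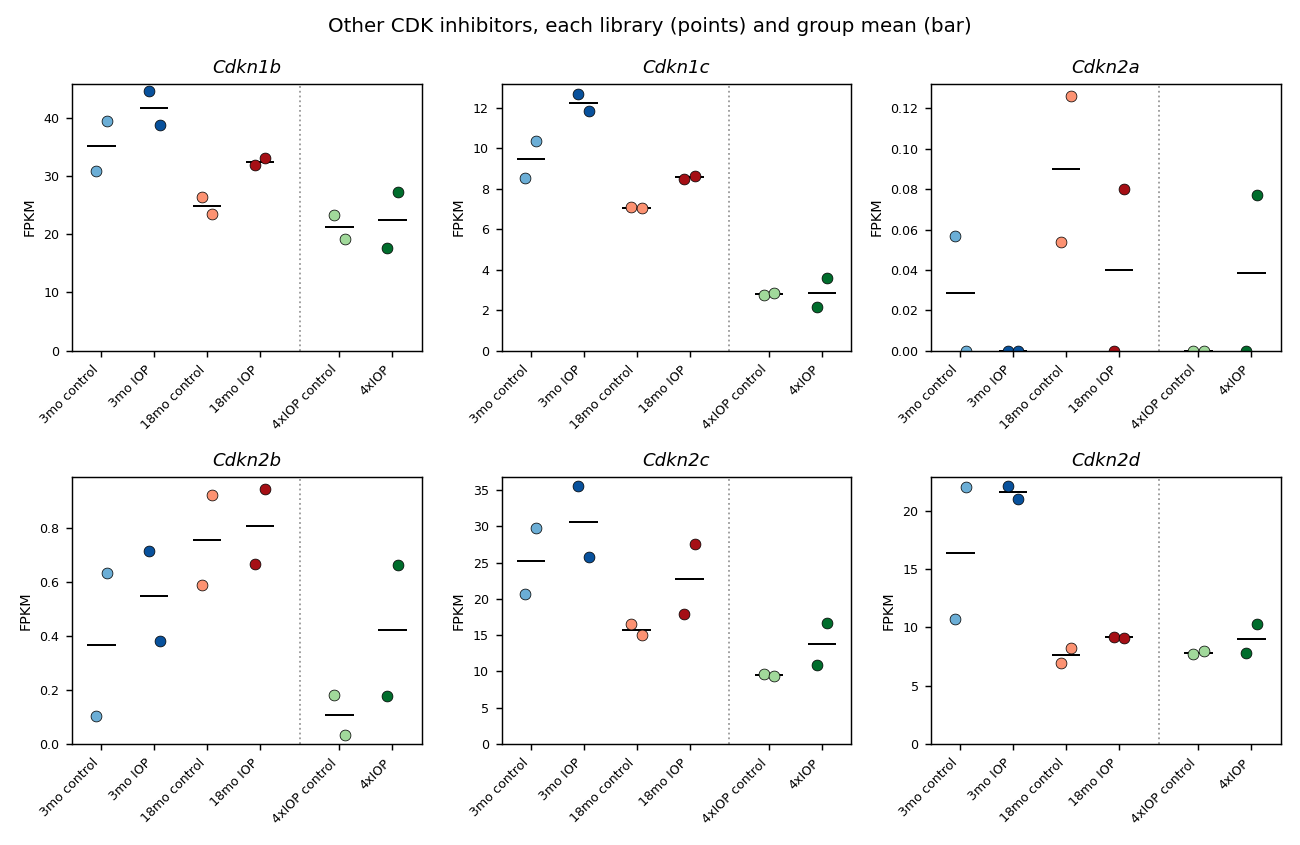
FPKM of the 6 CDK inhibitor genes other than Cdkn1a in each of the 12 libraries (points) with the group mean (bar), on linear axes of their own, with the repeated-IOP table to the right of the dotted line. Cdkn2a stays at or under 0.126 FPKM, Cdkn2b is below 1 FPKM throughout, and within the single-IOP table Cdkn2d is lower in the 4 libraries of 18-month-old mice than in the 4 of 3-month-old mice.

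The make-up of the CDK inhibitor pool differed between ages, most of all in Cdkn1a. The 7 inhibitors summed to between 59.3 and 117 FPKM in the single-IOP libraries and to between 39.6 and 59.2 FPKM in the repeated-IOP libraries. Cdkn1b made the largest share in every library, between 33.7% and 53.2%. The share of Cdkn1a was 0.987% and 0.555% in 3mo control libraries, 1.33% and 1.12% in 3mo IOP, 8.03% and 7.55% in 18mo control, and 13.0% and 19.1% in 18mo IOP libraries. These 4 groups did not overlap and lay in that order, from lowest to highest. The shares were not tested. It was 0.603% and 0.809% in control and 2.61% and 1.21% in 4xIOP libraries of the other table. Against Cdkn1c, a transcript of nearly the same length, Cdkn1a stood at a ratio of 0.0828 and 0.0551 in 3mo control, 0.709 and 0.637 in 18mo control, and 1.20 and 2.17 in 18mo IOP libraries. It was thus the less abundant of the pair in every library but those of 18mo IOP retinas.

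**Figure D4:**
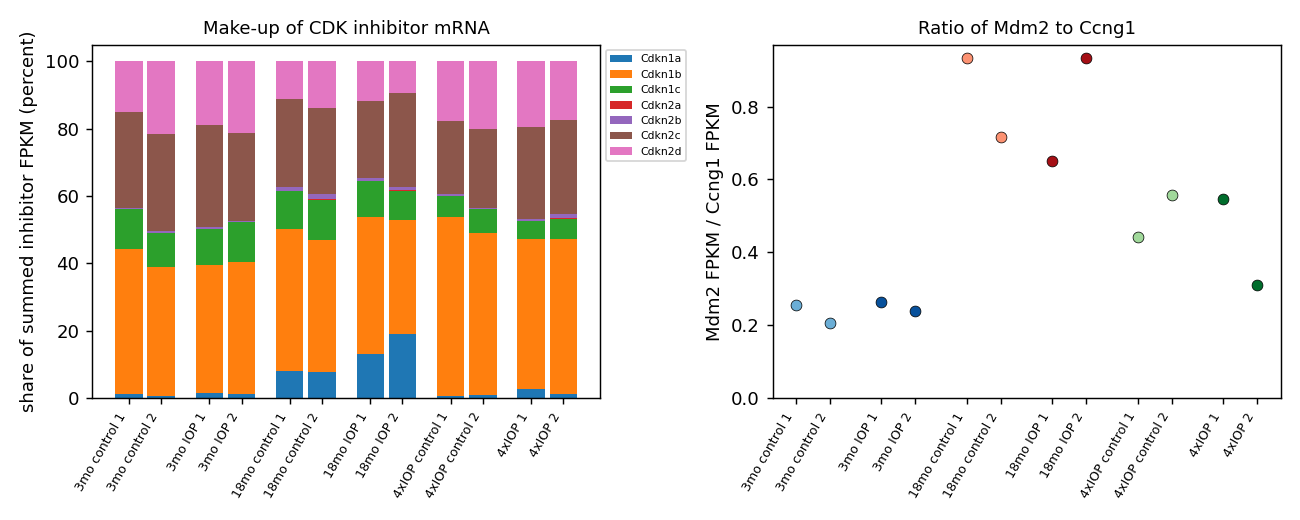
Share of each of the 7 CDK inhibitor genes in their summed FPKM, in percent, as stacked bars, 1 for each of the 12 libraries. The Cdkn1a part grows from at most 0.987% in 3mo control to 19.1% in 1 of the 18mo IOP libraries, while Cdkn1b is the largest part of every bar.

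Other genes of the pathway were taken from 4 lists, and their IOP counts stand beside 0.575% of all genes called at 3 months, 0.124% at 18 months and 6.15% after 4 elevations. Of 31 further p53 target genes, 26 were tested in the single-IOP table. In old untreated eyes 3 were called higher and none lower: Pmaip1, the gene of the pro-apoptotic protein Noxa (1.37 and 1.45 FPKM against 0.055 and 0.063, log2 fold change 1.77, limma adjusted p = 0.00484), Sesn2, a stress-induced inhibitor of mTORC1 signalling (1.25), and Plk3, a stress-responsive kinase (1.12). Of all genes 11.6% were called higher there. The call of Plk3 was lost with a pseudocount of 1 (0.739), and those of Plk3 and Sesn2 with single libraries left out. The median of the 26 was 0.26, beside 0.16 for all genes. In treated eyes 4 were called higher and none lower, Pmaip1 (log2 fold change 2.14), the kinase gene Plk2 (1.66), Plk3 (1.44) and the stress cytokine gene Gdf15 (1.36), where 10.2% of all genes were called higher. By IOP none of the 26 was called in limma at 3 or at 18 months, 10 and 16 of them lay above their controls without overlap, beside 28.6% and 36.5% of all genes, and 1 lay below at each age, beside 3.95% and 9.89%. After 4 elevations 1 of 22 tested was called, the death receptor gene Fas, at 1.62 and 2.97 FPKM in 4xIOP against 0.324 and 0.288 FPKM in control libraries (log2 fold change 1.75, limma adjusted p = 0.000728), where 6.15% of all genes were called. After a single elevation its log2 fold change was 1.83 at 3 months (limma adjusted p = 0.079) and 1.64 at 18 months (adjusted p = 0.128), and the separate tables allow no test between these responses. The microglia and leukocyte markers, 7 of 8 of which were called higher in the same comparison, moved with it, and their part in it was not tested.

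Of 15 regulators of p53, 12 were tested in the single-IOP table and none was called between untreated eyes, where 23.2% of all genes were, while 9 of the 12 lay higher in old eyes without overlap, as 45.7% of all genes did, and the median log2 fold change of the 12 was 0.54, beside 0.16 for all genes. In treated eyes 2 were called higher, the acetyltransferase gene Crebbp (1.05) and the p53 kinase gene Hipk2 (1.03), where 10.2% of all genes were called higher. Both calls were lost with the length trend removed, at 0.53 and 0.74, and that of Crebbp also with the replicate block (limma adjusted p = 0.0505). Both were also lost with a pseudocount of 1 (0.942 and 0.941), with size factors (0.963 and 0.941) and with single libraries left out. No regulator was called by IOP in limma at either age or, of 11 tested, after 4 elevations.

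Among 20 CDK, cyclin and RB genes, 16 were tested in the single-IOP table, and 2 were called higher and 1 lower in each kind of old eye. Of all genes 11.6% were called higher and 11.6% lower in untreated eyes, and 10.2% and 11.6% in treated eyes. Ccne2, a cyclin E gene of the entry into S phase, was called lower in old eyes, at 1.48 and 1.39 FPKM against 3.91 and 8.16 FPKM untreated (log2 fold change -1.68, limma adjusted p = 0.00819) and by -1.62 treated. Rb1, the retinoblastoma gene, was called higher at 1.05 and 1.14, and both values fell under the fold threshold with the length trend removed, at 0.73 and 0.79. Its untreated call was also lost with a pseudocount of 1 (0.999), size factors (0.884) or voom (0.925). Ccna2, a cyclin of S and G2 phase, was called higher in untreated eyes (1.06) and Ccnd3, a cyclin D gene, in treated eyes (1.19). None of the 16 was called by IOP in limma at either age, and after 4 elevations 1 of 15 was, the cyclin D gene Ccnd2 (0.982 and 1.01 FPKM against 0.253 and 0.213, log2 fold change 1.03, limma adjusted p = 0.0219), where 6.15% of all genes were called. This call was lost with a pseudocount of 1 (0.694), with size factors (0.960, limma adjusted p = 0.0613) and with single libraries left out. After a single elevation at 3 months the change of Ccnd2 was 1.11 (limma adjusted p = 0.159).

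All 15 listed regulators of the Ink4/Arf locus were tested. In old untreated eyes 5 were called higher and none lower (where 11.6% of all genes were called in each direction). The median log2 fold change of the 15 was 0.76, beside 0.16 for all genes. The called genes included the histone demethylase gene Kdm6b (1.29), Id1, whose protein represses Cdkn2a (1.22, limma adjusted p = 0.0375), the activator gene Ets1 (1.14) and the Polycomb gene Ring1 (1.11). The untreated call of Id1 was lost with the replicate block (limma adjusted p = 0.0719), voom (0.138), size factors (0.0711) or no filter on low values (0.078), and with 6 of the 8 libraries left out in turn. In treated eyes 4 were called higher, among them Id1 (1.84), Kdm6b (1.45) and Ets2 (1.44), and the Polycomb gene Cbx8 was called lower (-1.20), where 10.2% and 11.6% of all genes were called higher and lower. Cdkn2a itself stayed near 0 in both kinds of eye. None of the 15 was called by IOP in limma at 3 months, at 18 months or after 4 elevations. With the length trend removed, Kdm6b (0.85 and 0.95), Ets1 (0.81), Cbx8 (-0.71) and Ccna2 (0.88) came under the fold threshold. Of the 25 calls named from the 4 lists, 4 held under every alternative and with every library left out, those of Pmaip1 in both kinds of eye, Ets2 in treated eyes and Fas after 4 elevations, and the other 21 missed a threshold at least once.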

How the data were processed

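RNA from whole retinas was made into poly(A)-enriched, strand-specific libraries and sequenced on a NovaSeq instrument. Per the submitters' notes reads were aligned to mm10 with STAR 2.7.8a. The authors counted uniquely mapped exonic tags on the transcribed strand with HOMER, keeping 1 isoform per gene, and deposited FPKM in 1 table per experiment. Replicates were not pooled.

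Members were taken by symbol. FPKM times transcript length and depth gave whole reads for at least 99.99% of the values checked (tolerance 0.1 reads), which gave the depth. For genes whose mean reached 0.5 FPKM, log2(FPKM + 0.5) entered a linear model in limma 3.58.1 (R 4.3.3; lmFit, then eBayes with trend), in 4 groups (8 libraries) or 2 groups (4 libraries). No fold threshold was set for the interaction. On simulated data whose changed genes moved by 2 on the log2 scale, 99% of them were recovered in the untreated age comparison (13731 genes), with 13 false calls. Recovery of smaller changes, such as those of most members, was not tested. Replicate libraries differed beyond counting noise in every group.

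Members, lists and rules were chosen with earlier results of these data known. All 10 members are named, and of each pathway list at most the 4 called genes with the largest change in a comparison. Alternatives were other pseudocounts and filters, size factors, eBayes with no trend, same-numbered libraries as a block, the 2 groups alone, removal of the trend with transcript length (spline, 5 degrees of freedom), voom on the recovered reads, the adjusted p alone and each library left out. A crossed pairing was chosen after seeing the data. RefSeq start windows (GRCm38.p6) were found for 9 members. The other assays of the study were not analysed here.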

Additional observations from a re-analysis of the deposited data

Results flagged for a closer look

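Ccng1 lay on opposite sides of the mean of its controls after IOP in young mice of the 2 tables, and neither difference passed the threshold. Both 3mo IOP libraries were below that mean, at -0.14 on the log2 scale (adjusted p = 0.986 in limma), and both 4xIOP libraries were above it, at 0.36 (adjusted p = 0.72 in limma). Both values rested on single libraries: the first went from -0.237 (without 3mo control replicate 1) to -0.0371 (without 3mo control replicate 2), and the second from 0.0427 (without 4xIOP replicate 2) to 0.682 (without 4xIOP replicate 1). The libraries of each comparison overlapped, and the difference between the 2 responses was not tested, since the tables were made separately.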

How the results depend on the processing

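Of the values recomputed for the members, 797 kept their direction and call, 34 turned their sign, 14 gained a call and 5 lost one. The 14 include calls by the adjusted p alone, where the fold threshold was dropped, and the call of Cdkn1a in the crossed pairing. The call of Cdkn1a between ages held under every alternative, as did that of Ccng1 in untreated eyes. By the adjusted p alone 4 members instead of 2 were called in untreated eyes (Mdm2 and Cdkn2d added) and 5 instead of 2 in treated eyes (Mdm2, Ccng1 and Cdkn1c added). Leaving out 1 library gave 2 to 3 calls in untreated eyes and 1 to 2 in treated eyes, and 0 to 1 by IOP at 18 months, where the call without 18mo IOP replicate 1 is Cdkn1a. Same-numbered libraries correlated negatively in their deviations from the group means (-0.275, -0.53 and -0.29 at 3 months, 18 months and after 4 elevations), so the numbers were not taken as pairs. The IOP comparisons were tested unpaired, although each control was the other eye of a treated animal. With the replicate block 0 members were called by IOP at 18 months, and it changed no member's call, though 3 members under the fold threshold no longer passed the adjusted p in limma, Mdm2 between ages in either kind of eye, Cdkn1c between treated eyes (0.134) and Cdkn2d between untreated eyes (0.0512). With the numbers crossed 1 member, Cdkn1a, was called at 18 months.

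None of the differences whose sign turned had been called, and the cause was not tested. With the length trend removed Cdkn2c went from -0.64 to 0.0554 between untreated and from -0.44 to 0.281 between treated eyes, Cdkn2b by IOP at 18 months -0.0124, and the Trp53 difference between responses 0.00511. With median-of-ratios size factors, IOP differences at 18 months became -0.0961 (Mdm2), -0.0136 (Cdkn2b) and -0.0266 (Ccng1), those after 4 elevations -0.0355 (Mdm2) and -0.0789 (Cdkn1b), and the Trp53 difference 0.0295. With voom they became -0.0886, -0.0231 and -0.0172 at 18 months and -0.0202 and -0.0659 after 4 elevations. Leaving out 1 library gave ranges at 3 months of -0.0603 to 0.0347 (Mdm2), -0.131 to 0.776 (Cdkn2b) and -0.0296 to 0.98 (Cdkn2d). At 18 months they were -0.0861 to 0.145 (Mdm2), -0.131 to 0.252 (Cdkn2b) and -0.0404 to 0.24 (Ccng1), and -0.208 to 0.151 for the Trp53 difference. After 4 elevations they were -0.324 to 0.294 (Cdkn1c), -0.00922 to 0.374 (Cdkn2d) and -0.25 to 0.359 (Cdkn1b).

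Over all genes, calls between untreated eyes numbered 1595 higher and 1590 lower. They were 1059 and 1968 with size factors, which moved the median log2 fold change of all genes from 0.16 to 0.01, 1503 and 2084 with voom, and 1148 and 1066 with the length trend removed. Between treated eyes 1407 and 1593 became 1116 and 1770 with size factors. With 1 library left out the untreated counts went from 610 and 566 (without 18mo control replicate 2) to 2624 and 2093 (without 3mo control replicate 1), and the treated counts down to 401 higher (without 3mo IOP replicate 2) and 267 lower (without 3mo IOP replicate 1). By IOP, the 78 genes higher at 3 months ranged from 3 to 119, the 16 at 18 months from 0 to 39 and the 748 after 4 elevations from 405 to 939 over the settings chosen beforehand. With 1 library left out they ranged from 0 to 253 (without 3mo control replicate 2), from 0 to 140 (without 18mo IOP replicate 1) and from 590 to 714. With the numbers crossed the first 2 became 298 each. Low read numbers limit Cdkn2a and Cdkn2b, and 2 libraries per group limit every comparison.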
